A study of Homo sapiens with 16 samples.

Results

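The 10 genes described here encode transcription factors and 1 coactivator that set B cell and plasma cell identity: POU2AF1, POU2F1, POU2F2, ETS1, SPIB, RUNX1, PAX5, BACH2, PRDM1 and IRF4. They were chosen by their known roles and by the near-absence of POU2AF1 and ETS1 counts in KMS12PE clone D, so that clone's values are given as a description, with no test. The members and the gene lists below were chosen with earlier results of these data known. Counts of calls among them are thus not fully independent of the data. Of the 10, 8 are listed among the 12592 genes of the KMS12PE table (not POU2F2 and PAX5) and 9 among the 14560 genes of the KMS27 table (not BACH2), and 7 are in both. All listed members passed the filter on low counts.

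KMS12PE and KMS27 are human myeloma cell lines that carry t(11;14) and that were sensitive to venetoclax, an inhibitor of the anti-apoptotic protein BCL2. The study exposed both lines to a high dose of the drug, grew drug-tolerant clones from single cells and asked whether resistance came with changes in the genome or in transcription. RNA sequencing covered parental KMS12PE and its resistant clones A, C and D (replicates 1 and 3 of each), and parental KMS27 and its resistant clones B5, C1 and C5 (replicates 1 and 2 of each), 16 libraries in all. The clones were maintained in 100 nM venetoclax, while no dose is given for the parental cells, so drug, selection and single-cell origin cannot be told apart in any comparison of a clone with its parental line. Each clone is 1 isolate, and the labels do not say whether its replicates are separate cultures, so p-values measure only the spread between these libraries.

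Octamer-binding factors of the POU2 family (POU2F1 is widely expressed, POU2F2 is enriched in B cells) bind immunoglobulin promoters and recruit the coactivator POU2AF1, also called OCA-B or BOB.1, which binds DNA with them and not alone. PAX5 and BACH2 hold the B cell state, while PRDM1 (Blimp-1) and IRF4 drive and maintain the plasma cell state and PRDM1 represses B cell genes, among them PAX5, in normal cells. ETS1 and SPIB are ETS family factors of lymphoid cells, and RUNX1 is a core-binding factor of blood development.

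Of 10 plasma cell markers, 9 are listed in both tables (not CD27), and their summed level was 2923 to 3705 CPM (counts scaled to a common library total) in KMS12PE libraries and 5322 to 11345 CPM in KMS27 libraries, with clone C5 lowest at 5322 and 5513 CPM. The 9 markers include the members IRF4 and PRDM1, so the sum is not separate from the genes described here. Of 10 T and natural killer cell markers, 2 are listed in KMS12PE (summed 1.89 to 6.18 CPM) and 3 in KMS27 (5.28 to 12.8 CPM), and no erythroid marker is listed. Monocyte and macrophage markers are represented by ITGAM alone, in KMS27, at 0.0363 to 0.0780 CPM in parental cells and up to 1.68 CPM in clone C5. Among stromal and endothelial markers, PECAM1 (KMS12PE) and PECAM1 with PDGFRB (KMS27) are listed, with clone C5 of KMS27 at 7.08 and 9.46 CPM against 1.83 and 1.99 CPM in parental cells. The part of these markers in the results below was not tested. Libraries held between 5831289 (parental) and 13674426 (clone C) counts for KMS12PE and between 20257318 (clone B5) and 52615971 (clone C1) for KMS27, so that 3 counts were worth 0.212 to 0.527 CPM and 0.0596 to 0.160 CPM.

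PAX5 and SPIB rose in all 3 KMS27 clones and POU2F2 in clone B5, and the promoters of these B cell factors are shown for that reason, from 250 bases before to 50 after the RefSeq start (GRCh38.p14), 5′ to 3′ on the gene's strand. Exact matches to an octamer (ATGCAAAT), an ETS (CCGGAAGT), a RUNX (TGTGGTTT), an IRF (GAAANNGAA) and a BACH (GCTGAGTCA) motif were searched on both strands, and matches are in capitals.

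POU2F2, chr19:42132397-42132696, minus strand: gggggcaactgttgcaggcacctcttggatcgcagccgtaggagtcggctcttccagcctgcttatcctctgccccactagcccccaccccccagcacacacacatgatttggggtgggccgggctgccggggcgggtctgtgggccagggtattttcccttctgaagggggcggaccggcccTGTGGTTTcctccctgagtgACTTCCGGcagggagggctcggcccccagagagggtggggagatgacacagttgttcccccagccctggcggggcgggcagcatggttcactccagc
SPIB, chr19:50418688-50418987, plus strand: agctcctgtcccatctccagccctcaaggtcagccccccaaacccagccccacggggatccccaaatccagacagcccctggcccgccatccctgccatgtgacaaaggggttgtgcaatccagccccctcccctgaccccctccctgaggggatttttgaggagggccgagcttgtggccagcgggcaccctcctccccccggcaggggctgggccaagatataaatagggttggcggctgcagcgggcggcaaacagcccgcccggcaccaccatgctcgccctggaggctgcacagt
PAX5, chr9:37034219-37034518, minus strand: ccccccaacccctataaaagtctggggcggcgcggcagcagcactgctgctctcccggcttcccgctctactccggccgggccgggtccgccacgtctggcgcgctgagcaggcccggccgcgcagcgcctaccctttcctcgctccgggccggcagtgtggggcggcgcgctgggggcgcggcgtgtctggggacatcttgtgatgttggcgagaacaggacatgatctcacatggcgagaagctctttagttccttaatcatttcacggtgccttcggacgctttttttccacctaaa

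The RefSeq starts used for POU2F2 and RUNX1 lie well inside the GENCODE v29 gene bodies, downstream of the starts annotated there. A single start was searched for each gene, so other starts of a gene were not covered. The POU2F2 promoter held a RUNX match on its own strand, 67 bases before the start, and an ETS match on the other strand, 47 bases before the start, as ACTTCCGG. Neither the SPIB nor the PAX5 promoter held any of the 5 motifs, and the promoters of the 5 further members with an entry (POU2F1, RUNX1, IRF4, BACH2 and PRDM1) held none either. Over the 27305 promoters of the same length, 4.35% held the ETS motif, 1.56% the RUNX motif, 1.82% the octamer, 8.28% the IRF motif and 0.586% the BACH motif. A match is a description of the letters and shows no binding.

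In KMS12PE the coactivator gene POU2AF1 was at a lower level in all 3 resistant clones, while its partner POU2F1 was not called in the clones tested. POU2AF1 lies at chr11:111352252-111455630 on the minus strand. Parental libraries had 201 and 218 counts (35.3 and 34.2 CPM), clone A 40 and 52 counts (4.49 and 4.02 CPM), clone C 52 and 76 counts (4.58 and 5.36 CPM), and clone D 0 and 0 counts. Every clone library lay below both parental libraries, and no count was found in clone D. POU2AF1 fell in clone A (log2 fold change -3.03, SE 0.20, n = 2 and 2, adjusted p = 0.00109 by edgeR's quasi-likelihood test) and in clone C (-2.80, SE 0.19, adjusted p = 0.000848). Clones A and C share the parental libraries with the clone D comparison that selected POU2AF1, so these p-values are not fully independent of that choice. Clone D, against a floor of 3 counts over its libraries, was at least 204-fold lower than parental cells. In bulk RNA, fewer cells that express a gene and less RNA per cell cannot be told apart.

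Of the 12279 genes tested, 0.212% were called higher and 0.236% lower in clone A, and 0.904% higher and 0.880% lower in clone C. Of the 8 members, 1 was called in clone A (POU2AF1, lower) and 3 in clone C (POU2AF1 lower, BACH2 and RUNX1 higher). In this line libraries that share a replicate number deviated together. With the number as a block the calls rose from 55 to 448 of all genes and from 1 to 3 members in clone A. In clone C they rose from 219 to 869 genes. The KMS12PE calls given here are from the fit without the block unless the block is named, so they leave this pairing out.

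POU2F1, the octamer-binding factor listed in both lines, lay at 135 and 99.1 CPM in parental KMS12PE, 119 and 109 CPM in clone A, 124 and 118 CPM in clone C and 133 and 134 CPM in clone D. All clone libraries fell within the range of the parental pair. The log2 fold change was -0.04 in clone A (adjusted p = 0.998) and 0.05 in clone C (adjusted p = 0.982).

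**Figure D1:**
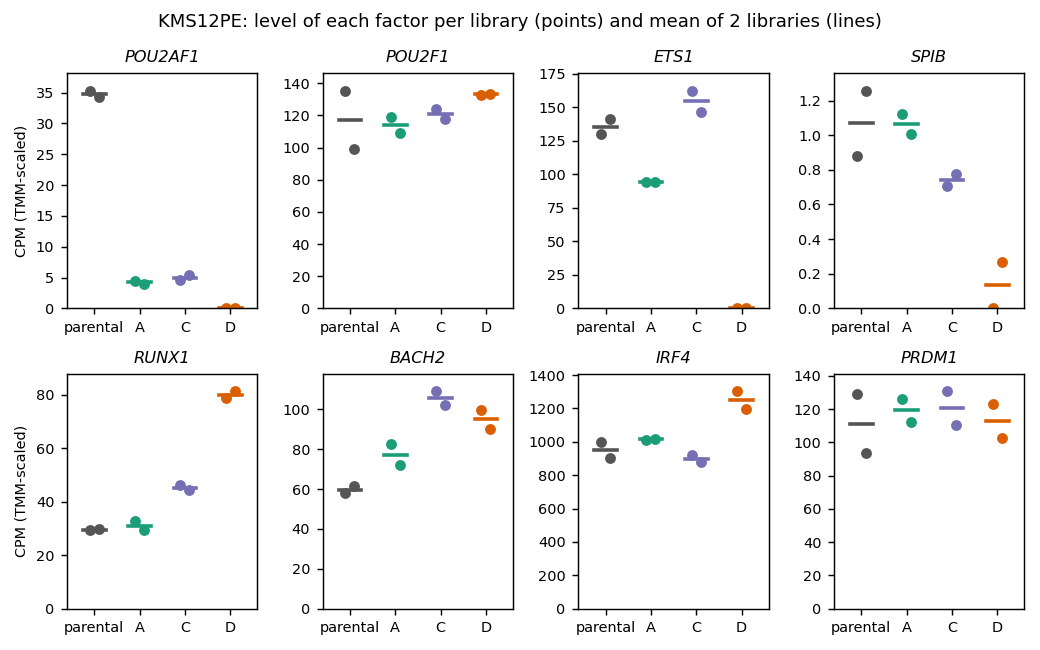
Level of each listed factor in the 8 KMS12PE libraries, in CPM scaled by TMM on a linear axis that starts at 0, with points for single libraries and a line for the mean of 2. POU2AF1 stood at 34.2 to 35.3 CPM in parental cells and at 0 in clone D, and ETS1 at 130 to 141 CPM in parental cells and at 0 and 0.0890 CPM in clone D.

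ETS1 showed another pattern in KMS12PE: it was near 0 in clone D alone, and clones A and C lay within 0.52 of the parental level on the log2 scale. The gene lies at chr11:128458761-128587558, minus strand, on the same chromosome as POU2AF1. Parental libraries had 741 and 897 counts (130 and 141 CPM), clone A 838 and 1219 (94.2 and 94.3 CPM), clone C 1841 and 2079 (162 and 147 CPM), and clone D 0 and 1 (0 and 0.0890 CPM). Clone A lay below both parental libraries and clone C above both. The log2 fold change in clone A was -0.52 (SE 0.10, adjusted p = 0.0700), with no call. With the replicate number as a block ETS1 fell there (adjusted p = 0.000171), as it did by DESeq2's test (adjusted p = 0.0216). In clone C the log2 fold change was 0.19 (SE 0.10, adjusted p = 0.588). The ratio of parental to clone D was 2387-fold (exact 95% interval 428 to 94343, counting error only, from 1638 against 1 count). Among all genes, 0.953% of the 12279 genes were at least 8-fold lower in clone D with that clone set to at least 3 counts, and POU2AF1 and ETS1 are 2 of those 117 genes by the way they were chosen.

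The other ETS factor, SPIB, was at the edge of detection in KMS12PE, with 5 and 8 counts in parental cells (0.878 and 1.26 CPM), 10 and 13 in clone A, 8 and 11 in clone C and 0 and 3 in clone D. The ratio of parental cells to clone D was 6.32-fold (exact 95% interval 1.74 to 34.5, counting error only). Clones A and C gave log2 fold changes of -0.02 (SE 0.59, adjusted p = 0.998) and -0.52 (SE 0.61, adjusted p = 0.901), so a difference was not detectable at this depth. The further ETS family members gave no call in clone A and 1 higher call of 13 in clone C, ELK3 (0.43, adjusted p = 0.0368), and their median log2 fold change was 0.00 and 0.07, beside 0.00 and 0.00 for all genes. ELK3 lost its call when any 1 parental, clone A or clone C library was left out (adjusted p of 0.0979 to 0.246). FLI1, whose start lies 0.099 Mb from that of ETS1, gave -0.33 in clone A and -0.33 in clone C with no call, and was called lower in both with the replicate block.

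Tested neighbours within 2 Mb of POU2AF1 and ETS1 on chromosome 11 had medians between -0.22 and 0.03 in the 3 clones. Within 2 Mb of the POU2AF1 start, 17 tested genes had a median log2 fold change of 0.03 in clone A, -0.01 in clone C and 0.00 in clone D, where they ran from -1.12 (C11orf52) to 0.78 (PIH1D2). SIK2, which starts 0.147 Mb away, gave 0.14, 0.18 and -0.06. Within 2 Mb of the ETS1 start, 8 tested genes had a median of -0.22 in clone A, 0.00 in clone C and -0.22 in clone D. Of these, ST14 was lower in clone D (-4.57), while FLI1 was at -0.45 and SENCR, which starts 0.108 Mb away, at -1.07. Within 10 Mb the clone D medians were -0.01 over 91 genes and 0.06 over 64 genes.

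**Figure D2:**
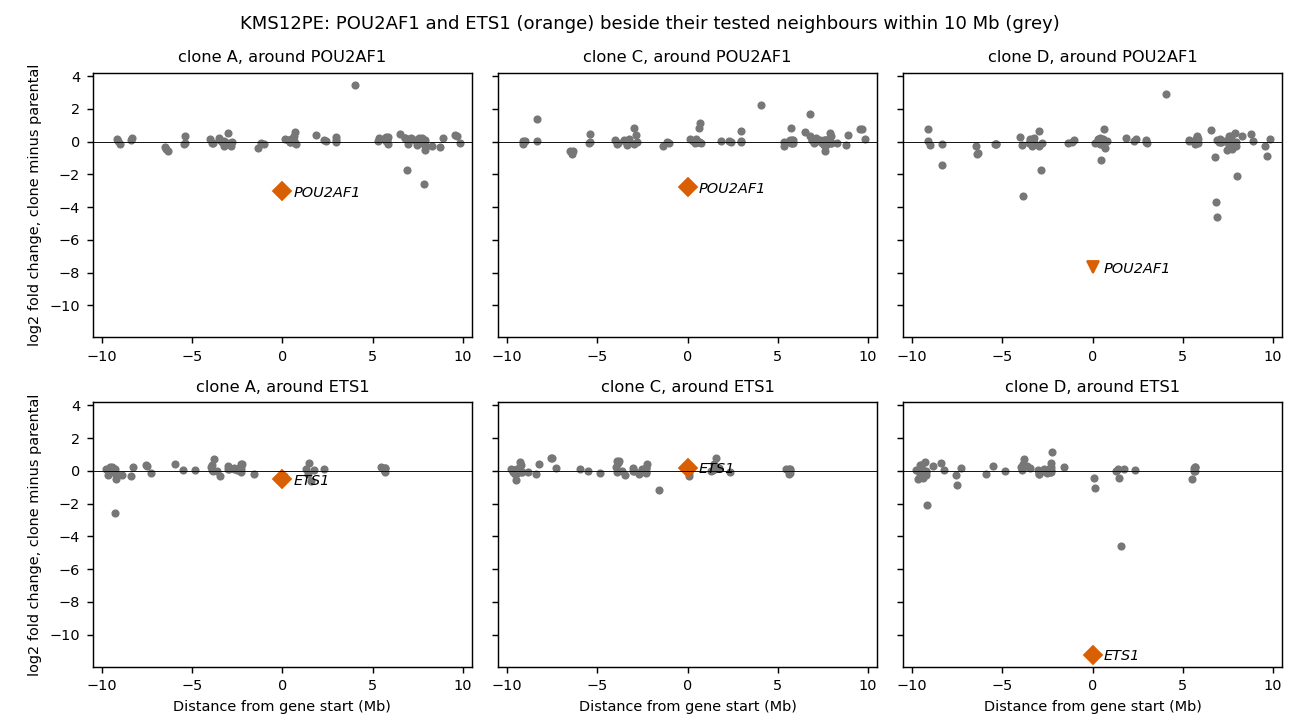
Log2 fold change of clone minus parental in KMS12PE against distance in Mb from the start of POU2AF1 (top row) or ETS1 (bottom row), for clones A, C and D. Grey points are tested neighbours, and orange marks the named gene, as a downward triangle where clone D had 0 counts and the value is a bound. Genes with 1 to 3 counts in a clone are drawn at the ratio of pooled counts. The 17 neighbours within 2 Mb of POU2AF1 ran from -1.12 to 0.78 in clone D.

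RUNX1 and BACH2 rose in clone C. RUNX1 stood at 29.3 and 29.8 CPM in parental KMS12PE, 32.7 and 29.5 CPM in clone A, 46.2 and 44.3 CPM in clone C and 78.7 and 81.4 CPM in clone D. Clones C and D lay above all parental and clone A libraries. The rise in clone C was 0.61 (SE 0.10, adjusted p = 0.0195) and the value in clone D, described only, was 1.44. The clone C call rested on every library of its comparison. Leaving out clone C replicate 1 or 3 gave an adjusted p of 0.146 or 0.101, and leaving out parental replicate 1 or 3 gave 0.143 or 0.140.

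BACH2, a repressor of plasma cell differentiation, lies at chr6:89926529-90296908 on the minus strand. It was at 58.1 and 61.3 CPM in parental cells, 82.4 and 72.0 CPM in clone A, 109 and 102 CPM in clone C and 99.7 and 90.0 CPM in clone D. All clone libraries lay above both parental libraries. BACH2 rose by 0.82 in clone C (SE 0.10, adjusted p = 0.00590; 0.0703 without parental replicate 1), was 0.37 in clone A (SE 0.10, adjusted p = 0.295; 0.0151 with the replicate block) and 0.66 in clone D. Of BACH1, the small MAF partners of BACH factors and their target HMOX1, none of 5 was called in clone A and 1 in clone C, MAFG (-0.85, adjusted p = 0.0495), with medians of 0.05 and -0.07. With the replicate block MAFK was called higher in clone A. MAFG kept its call in 4 of 12 alternatives and lost it when any 1 parental, clone A or clone C library was left out (adjusted p of up to 0.306), with DESeq2's size factors and with no filter.

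PRDM1 and IRF4, which drive the plasma cell state, gave no call in KMS12PE. PRDM1 (chr6:106086320-106109939, plus strand) overlaps ATG5 on the opposite strand, and since the strand setting of the counting is not given in the sources used here, reads of the pair cannot be told apart. PRDM1 ran from 93.6 to 129 CPM in parental cells and from 102 to 131 CPM over the clones. The log2 fold change was 0.10 in clone A and 0.12 in clone C (adjusted p = 0.990 and 0.923), and 0.02 in clone D.
IRF4 stood at 903 to 1001 CPM in parental cells, 880 to 1016 CPM in clones A and C and 1198 and 1305 CPM in clone D. Its log2 fold change was 0.09 in clone A and -0.08 in clone C (adjusted p = 0.967 and 0.905), and clone D, at 0.39, lay above all other libraries.

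Genes downstream of PRDM1, IRF4 and XBP1 gave no call in clone A and 3 of 17 calls in clone C: FKBP11, a protein-folding gene of secretory cells, fell (-0.49, adjusted p = 0.0230), as did JCHAIN (-0.71, adjusted p = 0.0455), while PIM2 rose (0.61, adjusted p = 0.0425). The calls of FKBP11 and JCHAIN were lost when any 1 parental, clone A or clone C library was left out (adjusted p of 0.0603 to 0.199 and 0.0679 to 0.286), and that of PIM2 likewise except for parental replicate 3 (0.0817 to 0.221). Their median log2 fold change was -0.13 in clone A, -0.20 in clone C and -0.23 in clone D. With the replicate block, 4 of the 17 were called in clone A (1 higher, 3 lower) and 9 in clone C (2 higher, 7 lower). Of 18 other B lineage transcription factors tested, none was called in clone A and 1 in clone C, MEF2C (0.50, adjusted p = 0.0322, and 0.0625 to 0.204 when any 1 parental, clone A or clone C library was left out). Their medians were -0.11 and 0.02. With the replicate block MEF2C was called higher in clone A, and MEF2C and MYB in clone C. None of the 3 PRDM1-repressed genes and none of the 3 PAX5-activated genes tested was called in clone A or C.

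Of 14 octamer-linked genes 5 are listed in KMS12PE, and 1 of them, IGLC1, was called, in clones A and C. IGLC1, an immunoglobulin lambda constant gene, had a mean of 41.1 CPM in parental cells (SD 5.47, n = 2) and was at 106 and 111 CPM in clone A, 88.7 and 89.5 CPM in clone C, and 0 and 0.0890 CPM in clone D. IGLC1 thus rose in clones A and C, by 1.40 (SE 0.12, adjusted p = 0.00134) and 1.12 (SE 0.12, adjusted p = 0.00222), while clone D had 1 count against 493 in parental cells, a ratio of 718-fold (exact 95% interval 128 to 28435, counting error only). IGLC1 shares near-identical sequence with the other IGLC genes, so its reads may be split among them. TNFRSF17, which encodes the surface receptor BCMA, lay at 76.1 and 83.7 CPM in parental cells and 187 and 211 CPM in clone D (log2 fold change 1.31), and was not called in clones A and C. BTK, a kinase of the B cell receptor, was at 1.76 and 2.20 CPM in parental cells and 1.10 and 1.25 CPM in clone D. IGHG1, an immunoglobulin heavy chain constant gene, was at 3.51 and 6.60 CPM in parental cells and 0.979 and 1.26 CPM in clone D. SPP1, which encodes the secreted protein osteopontin, was at 0.786 and 0.878 CPM in parental cells and 3.38 and 4.89 CPM in clone D. In clone D, then, TNFRSF17 and SPP1 lay above the parental libraries and IGLC1, BTK and IGHG1 below them. Clone C also lay below the parental pair for BTK (1.06 to 1.27 CPM) and above it for SPP1 (1.27 to 1.32 CPM). Counts of these genes were low. Parental cells and clone D had 24 and 21 counts of BTK, 62 and 19 of IGHG1 and 10 and 69 of SPP1. The 5 genes had medians of 0.00 in clone A, 0.27 in clone C and -0.74 in clone D.

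Genes whose levels over the 8 KMS12PE libraries were most like POU2AF1, among 206 genes whose range of log2 CPM was at least 0.5 times its own, included LTB, CD53, CYSLTR1 and EVI2A, with Pearson's r of 0.970, 0.964, 0.962 and 0.956. CD53 shows the pattern: 13.7 and 14.8 CPM in parental cells, 4.49 and 3.87 CPM in clone A, 1.41 and 1.27 CPM in clone C and 0 in clone D. Among 82 candidates, the genes most like ETS1 were KCNMA1, PRAME, ANKRD18B, MYCN and SCN3A, with r from 0.994 to 0.997. MYCN had 24 and 40 counts in parental cells, 38 to 93 counts in clones A and C and 0 counts in clone D. POU2AF1 and ETS1 had r = 0.903 with each other. These correlations describe 8 libraries, 2 for each of 4 populations, in which clone D is lowest for each of these genes. POU2AF1 and ETS1 were chosen for their near-absence in clone D, and the candidates by a range that clone D sets. High correlations with and between the 2 genes largely follow from that choice and are no independent result.

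In KMS27 the B cell factors SPIB and PAX5 rose in all 3 clones, and POU2AF1 and ETS1 stayed well above 0 in every library. Of the 9 members listed, 5 were called in clone B5 (all higher), 4 in clone C1 (3 higher, 1 lower) and 3 in clone C5 (2 higher, 1 lower). Many more genes were called in this line than in KMS12PE: 10.8% higher and 10.2% lower of 14088 tested in B5, 11.5% and 10.1% in C1, and 10.4% and 9.28% in C5. The KMS27 libraries were deeper (20257318 to 52615971 counts against 5831289 to 13674426). The KMS12PE fit also leaves out its replicate pairing, and with the block calls there rose to 448 in clone A and 869 in clone C. The part of depth and pairing in this contrast of lines was not tested.

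SPIB, at chr19:50418938-50431313 on the plus strand, was at 5.40 and 7.10 CPM in parental KMS27, 12.3 and 14.8 CPM in clone B5, 22.6 and 22.4 CPM in clone C1 and 19.6 and 24.6 CPM in clone C5. Every clone library lay above both parental libraries. SPIB rose by 1.12 (SE 0.19, adjusted p = 0.00383), 1.85 (SE 0.18, adjusted p = 0.000334) and 1.82 (SE 0.19, adjusted p = 0.000287), and the highest adjusted p over 12 alternatives was 0.0356 in clone B5. Genes on chromosome 19 had medians of -0.19, 0.05 and -0.22 in the 3 clones.

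PAX5, at chr9:36833275-37034185 on the minus strand, was at 14.5 and 13.7 CPM in parental cells, 26.1 and 24.7 CPM in B5, 21.4 and 23.2 CPM in C1 and 25.9 and 26.3 CPM in C5. All 6 clone libraries exceeded both parental ones. The rises were 0.85 (SE 0.12, adjusted p = 0.00144), 0.66 (SE 0.12, adjusted p = 0.00516) and 0.89 (SE 0.12, adjusted p = 0.00112), and no alternative ended them. Of 7 tested genes that PAX5 activates in B cells, none was called higher and 2 were called lower in each clone. Of all genes tested, 10.8%, 11.5% and 10.4% were called higher and 10.2%, 10.1% and 9.28% lower in B5, C1 and C5. BLK, a B cell receptor kinase, fell from 12.8 and 13.6 CPM in parental cells to 0.915 and 1.17 CPM in B5, 0.993 and 1.46 CPM in C1 and 1.85 and 2.31 CPM in C5 (-3.67, -3.45 and -2.66, adjusted p at most 0.000228). LEF1, a Wnt pathway transcription factor, fell in each clone (-0.89, -0.64 and -0.63, adjusted p at most 0.00332). The medians of the 7 genes were -0.13, -0.24 and 0.10. Their largest rises were 1.84 in B5, 1.84 in C1 and 0.93 in C5, with no call.

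POU2F2, at chr19:42086110-42196585 on the minus strand, was at 2.14 and 1.79 CPM in parental cells, 6.99 and 4.63 CPM in B5, 2.72 and 3.34 CPM in C1 and 2.73 and 3.51 CPM in C5. Clone B5 lay highest, and all clone libraries lay above both parental libraries. It rose in B5 by 1.56 (SE 0.29, adjusted p = 0.00643; 0.0539 without parental replicate 2), and gave 0.61 and 0.66 in C1 and C5 (adjusted p = 0.166 and 0.158).
Its relative POU2F1 was not called in any clone (0.20, 0.22 and 0.16, adjusted p of 0.383, 0.300 and 0.490) and ran from 75.2 to 103 CPM over the 8 libraries.

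POU2AF1 was not called against parental cells in KMS27 by edgeR's quasi-likelihood test on all libraries. Parental libraries had 328 and 326 CPM, clone B5 263 and 314 CPM, clone C1 487 and 401 CPM and clone C5 350 and 367 CPM. Clones C1 and C5 lay above the parental pair and B5 below it. The log2 fold changes of B5, C1 and C5 were -0.18, 0.44 and 0.13 (adjusted p = 0.404, 0.0552 and 0.565). In C1 it was called higher by DESeq2 (adjusted p = 0.0133), and by edgeR's test without B5 replicate 1 or 2 (adjusted p = 0.00755 and 0.00933). Genes on chromosome 11 had medians of -0.60, -0.36 and -0.38 in B5, C1 and C5. Tested genes within 2 Mb of the POU2AF1 start had medians of -0.02, -0.08 and -0.18. Those within 2 Mb of the ETS1 start had medians of -0.23, -0.25 and -0.08. The part of these shifts in the values of POU2AF1 and ETS1 was not tested.

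ETS1 moved in opposite directions in KMS27 clones. It was at 231 and 237 CPM in parental cells, 293 and 360 CPM in B5, 125 and 145 CPM in C1 and 223 and 219 CPM in C5. Clone B5 lay above the parental pair and clone C1 below it. ETS1 rose in B5 by 0.48 (SE 0.13, adjusted p = 0.0328) and fell in C1 by 0.79 (SE 0.13, adjusted p = 0.00436). The rise in B5 passed only without B5 replicate 1 among the 8 fits that left out 1 library, with values of 0.178 and 0.134 when parental replicates 1 and 2 were left out, 0.0916 without B5 replicate 2, 0.0539 and 0.0538 without C1 replicates 1 and 2, and 0.0688 and 0.0684 without C5 replicates 1 and 2. The fall in C1 gave 0.0641 without C1 replicate 1.

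RUNX1 was higher in clones B5 and C1. It was at 39.7 and 32.2 CPM in parental cells, 56.5 and 49.1 CPM in B5, 52.1 and 59.7 CPM in C1 and 41.8 and 39.6 CPM in C5, which overlapped the parental range. RUNX1 rose by 0.55 in B5 (SE 0.14, adjusted p = 0.0209) and 0.63 in C1 (SE 0.14, adjusted p = 0.0121), and gave 0.18 in C5 (adjusted p = 0.410). Without parental replicate 2 the adjusted p was 0.153 in B5 and 0.0892 in C1, and without C1 replicate 2 it was 0.0828 in C1.

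IRF4 was not called in KMS27, at 1770 to 1825 CPM in parental cells and 1454 to 1966 CPM over the clones (log2 fold changes 0.05, -0.03 and -0.28). PRDM1 was at 275 and 261 CPM in parental cells, 276 and 278 CPM in B5, 300 and 329 CPM in C1 and 209 and 205 CPM in C5. It fell in C5 by 0.37 (SE 0.11, adjusted p = 0.0457), and was not called in B5 (adjusted p = 0.801) or C1 (adjusted p = 0.163). The C5 call was lost without parental replicate 1 (0.270), parental replicate 2 (0.167), C1 replicate 1 (0.0736), C1 replicate 2 (0.0733), C5 replicate 1 (0.198) and C5 replicate 2 (0.215).

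**Figure D3:**
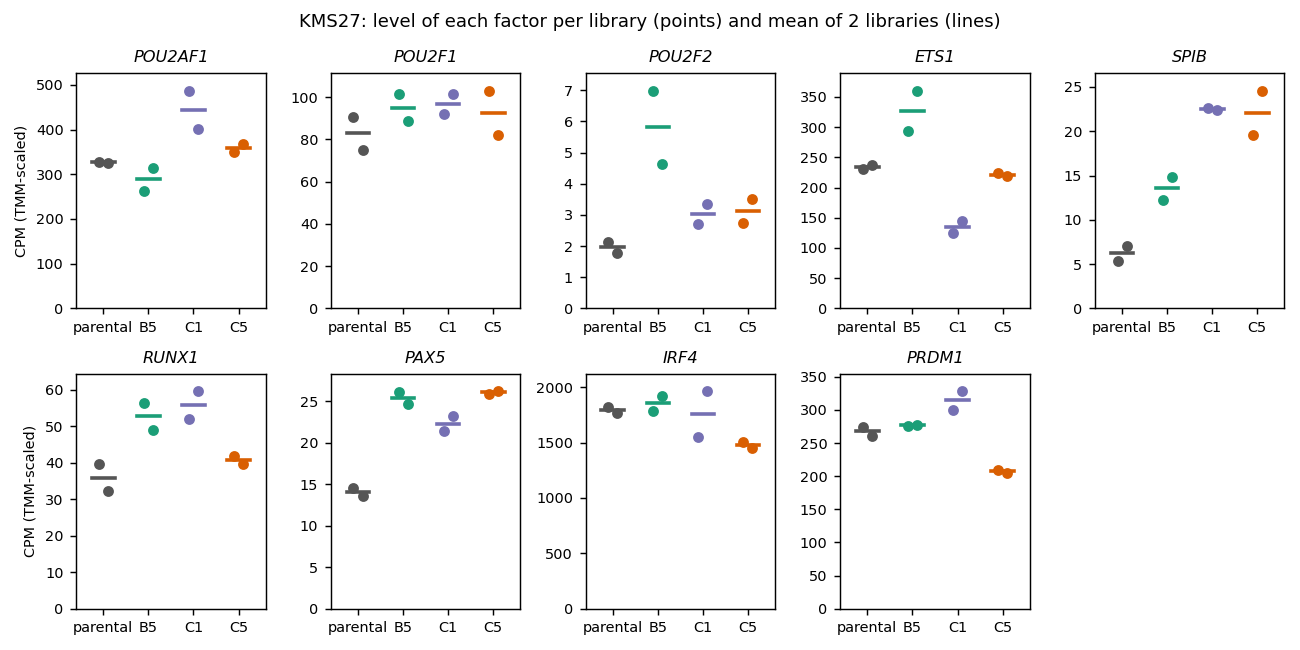
Level of each listed factor in the 8 KMS27 libraries, in CPM scaled by TMM on a linear axis that starts at 0, with points for single libraries and a line for the mean of 2. SPIB and PAX5 lay above both parental libraries in all 6 clone libraries, and ETS1 was highest in B5 and lowest in C1.

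More plasma cell genes downstream of PRDM1, IRF4 and XBP1 fell than rose in KMS27: of 17 tested, 6 fell in B5 and none rose, 5 fell and 1 rose in C1, and 10 fell and none rose in C5. Their medians were -0.30, -0.30 and -0.64, beside 0.00, -0.01 and -0.01 for all genes. Of all genes tested, 10.2%, 10.1% and 9.28% fell and 10.8%, 11.5% and 10.4% rose in B5, C1 and C5. MZB1, an endoplasmic reticulum chaperone of immunoglobulin, fell from 266 and 273 CPM in parental cells to 144 and 165 CPM in B5, 107 and 133 CPM in C1 and 111 and 111 CPM in C5 (adjusted p at most 0.00321). FKBP11 fell in each clone (-0.74, -0.91 and -1.22, adjusted p at most 0.00419). CD38, the surface enzyme that marks plasma cells, fell in C5 from 106 and 112 CPM to 2.36 and 2.71 CPM (-5.42, adjusted p = 1.19e-06).

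Genes repressed by PRDM1 were split. CIITA, the master activator of MHC class II genes, rose from 15.6 and 21.0 CPM in parental cells to 34.5 and 70.7 CPM in B5, 42.1 and 57.9 CPM in C1 and 114 and 115 CPM in C5 (1.53, 1.45 and 2.65). The adjusted p was 0.00837, 0.0107 and 0.000639, and without parental replicate 2 it was 0.0591 in B5 and 0.0645 in C1, and without C1 replicate 1 it was 0.104 in C1. ID3, an inhibitor of E proteins, fell in each clone (-0.92, -1.75 and -2.77, adjusted p = 0.0128, 0.000739 and 7.56e-05, with 0.0973 in B5 without parental replicate 2). MYC fell in B5 (-1.12) and C5 (-0.67, adjusted p = 0.000247 and 0.00317).

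Octamer-linked genes in KMS27 included 4 that rose and 1 that fell of 10 tested in B5. In C1, 2 rose and 1 fell, and in C5, 3 rose and 2 fell. Of all genes tested, 10.8% rose and 10.2% fell in B5, 11.5% and 10.1% in C1, and 10.4% and 9.28% in C5. The C1 counts lay near that share. The medians of the 10 genes were 0.43, 0.64 and 0.56. BTK rose in each clone, from 14.2 and 15.3 CPM in parental cells to 40.1 and 43.2 CPM in B5, 49.3 and 53.1 CPM in C1 and 60.6 and 62.0 CPM in C5 (1.50, 1.80 and 2.06, adjusted p at most 5.20e-05). MS4A1, which encodes CD20, rose in C5 from 0.117 and 0.326 CPM to 9.23 and 9.70 CPM (5.37, adjusted p = 0.000401). In B5 MS4A1 had 1 count against 12 in parental cells, a ratio of 9.66-fold (exact 95% interval 1.43 to 413, counting error only), and edgeR's quasi-likelihood test did not call it (adjusted p = 0.123). IGHG1 fell in C5 from 1251 and 1358 CPM to 555 and 606 CPM (-1.17, adjusted p = 0.000656), while its call in B5 was lost without any 1 parental, C1 or C5 library (0.0690 to 0.216) and that in C1 without either parental library or C1 replicate 1 (0.0532 to 0.0947). IGLC2 rose in B5 and C1 (1.92 and 2.00, adjusted p = 0.00155 and 0.00143) from 1.05 and 1.48 CPM, and shares sequence with IGLC1 and IGLC3.

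**Figure D4:**
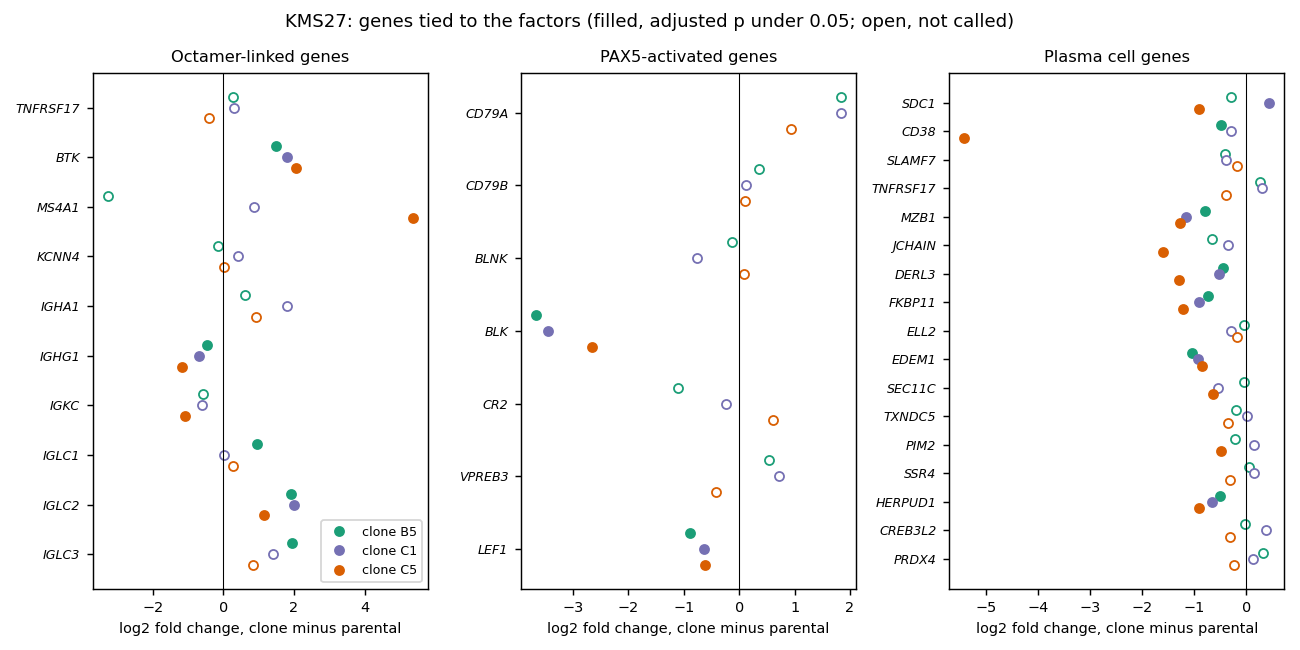
Log2 fold change of each KMS27 clone minus parental for octamer-linked genes, PAX5-activated genes and plasma cell genes (panels from left to right), with filled points for an adjusted p under 0.05 and open points otherwise. MS4A1 in clone B5 is drawn at the ratio of pooled counts. BTK lies right of 0 in all 3 clones, from 1.50 to 2.06, and BLK left of 0, from -3.67 to -2.66.

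Of 20 other B lineage transcription factors tested in KMS27, 1 rose and 6 fell in B5. In C1, 2 rose and 3 fell, and in C5, 1 rose and 7 fell, with medians of -0.10, 0.01 and 0.06 in B5, C1 and C5. For these and the lists below, the share of all genes called was 10.8% higher and 10.2% lower in B5. It was 11.5% and 10.1% in C1, and 10.4% and 9.28% in C5. The counts of 2 and 3 of 20 in C1 lay near that share. KLF2, a quiescence and homing factor, fell from 15.3 and 15.4 CPM in parental cells to 1.54 and 1.86 CPM in B5, 1.91 and 3.92 CPM in C1 and 0.741 and 1.04 CPM in C5 (adjusted p at most 0.00142). MYB fell in B5 by 0.74 on the log2 scale (adjusted p = 0.00217) and gave 0.01 and 0.28 in C1 and C5 with no call. Among 13 other ETS factors, ELF4 rose in each clone (0.76, 1.39 and 1.13, adjusted p = 0.00668, 0.000398 and 0.000931, with 0.0548 in B5 without parental replicate 2). In all, 2 of the 13 rose and 1 fell in B5, 3 and 2 in C1, and 2 and 0 in C5, with medians of -0.04, 0.06 and -0.05. Among 6 other interferon regulatory factors, IRF5 rose in C1 and C5 (0.97 and 1.13, adjusted p = 0.00534 and 0.00255). IRF3 fell in each clone (-0.50, -0.36 and -0.58, adjusted p = 0.00800, 0.0312 and 0.00435 by edgeR's quasi-likelihood test). IRF7 and IRF9 fell in C1 (-1.26 and -0.87, adjusted p = 0.00977 and 0.0124 by the same test). Each of these falls lost its call in at least 1 of 8 fits that left out 1 library. The calls were 0 higher and 1 lower in B5, 1 and 3 in C1, and 1 and 1 in C5, with medians of -0.20, -0.21 and 0.15. Of RUNX2, RUNX3 and CBFB, 0, 1 and 3 were called in the 3 clones. CBFB was lower in C1, and in C5 RUNX3 was higher and CBFB and RUNX2 were lower. Of the BACH partners and HMOX1, 2 of 5 rose in C1 and none was called in B5 or C5. None of the other class 2 POU factors and coactivators is listed in either line.

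The members that differed among the 3 KMS27 clones were ETS1, PRDM1, SPIB and POU2AF1, 4 of 9, beside 13.7% of all genes tested (edgeR's quasi-likelihood test of the 3 clones together, adjusted p = 0.00209, 0.0192, 0.0399 and 0.0452). Only the ETS1 difference passed in all 12 alternatives. The adjusted p of POU2AF1 was 0.0749 to 0.221 without either parental, C1 or C5 library, that of SPIB 0.0665 to 0.129 without B5 replicate 1 or either C1 or C5 library, and that of PRDM1 0.0683 to 0.127 without either C1 or C5 library and just over the threshold without parental replicate 2.

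The change of POU2AF1 and SPIB differed between KMS12PE clones A and C and the KMS27 clones. The test of POU2AF1 shares the KMS12PE parental libraries with the clone D comparison that selected this gene. Its p-value is thus not fully independent of that choice, and it measures only the spread between these libraries. For the 7 members in both tables, the mean change of KMS12PE clones A and C minus the mean change of the 3 KMS27 clones was tested over 11623 genes, of which 6.07% were called higher and 6.81% lower. POU2AF1 gave -3.04 (SE 0.16, adjusted p = 1.71e-07, at most 6.31e-06 in 20 alternatives), with changes of -3.03 and -2.80 in KMS12PE clones A and C beside -0.18, 0.44 and 0.13 in KMS27 clones B5, C1 and C5. SPIB gave -1.86 (SE 0.46, adjusted p = 0.0179), from 5 to 13 counts per library in KMS12PE, and 0.0502 without KMS12PE parental replicate 1, 0.204 without KMS12PE parental replicate 3 and 0.0535 without KMS27 parental replicate 1. ETS1, IRF4, POU2F1, PRDM1 and RUNX1 were not called, with differences from -0.18 (POU2F1) to 0.15 (PRDM1). For ETS1 the averages join opposite changes: -0.52 and 0.19 in clones A and C, and 0.48, -0.79 and -0.08 in B5, C1 and C5. Clone D is left out as well, so the contrast cannot show whether ETS1 responded alike in both lines.

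**Figure D5:**
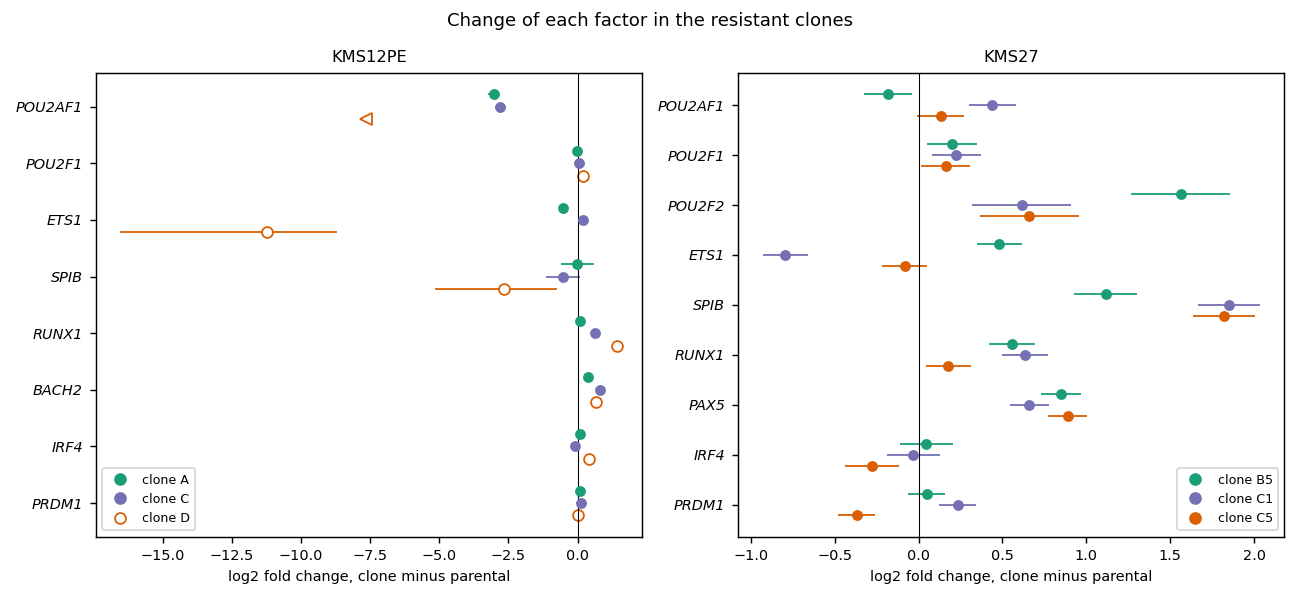
Log2 fold change of each clone minus parental for the listed factors, KMS12PE on the left and KMS27 on the right, with separate axis ranges. Filled points carry the SE of the fit. Open symbols are clone D, described only, with the triangle a bound (0 counts in POU2AF1) and lines the exact 95% interval of the count ratio for ETS1 and SPIB. POU2AF1 lies at -3.03 and -2.80 in clones A and C, and SPIB at 1.12 to 1.85 in the KMS27 clones.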

How the data were processed

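For each line the authors deposited a matrix of raw counts, genes by libraries. The genome build is hg38, per the submitters' processing notes. The aligner, counter, annotation and strand setting were not given in the sources used here. In both tables every gene has at least 5 counts in at least 4 libraries of its line, as found from the values. Poly-A libraries were made from 200 ng of RNA per the labels' protocols.

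Each line was fitted with edgeR 4.0.16 (R 4.3.3): filterByExpr (12279 and 14088 genes kept, 313 and 472 left out), TMM, 1 mean per population, glmQLFit and glmQLFTest, 2-sided. Benjamini-Hochberg adjustment ran over every tested gene of a line, and an adjusted p under 0.05 was a call. SE is the absolute log2 fold change over the root of F. A joint fit over 11623 shared genes gave the difference between lines. The biological coefficient of variation was 11.9% and 14.3%. Levels are CPM on TMM-scaled totals, as the mean or each library. The script was tested on simulated data. Populations with 0 counts get a bound against 3 counts over the population, and those with 1 to 3 counts an exact 95% ratio interval. Clone D, which selected POU2AF1 and ETS1, got no test.

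Named genes are the 10 members, up to 4 called genes with the smallest adjusted p of each list in each clone, tested neighbours within 2 Mb of POU2AF1 and ETS1, and the 5 genes most like each (1 of them is not reported here); genes named outside this rule (TNFRSF17, and in KMS12PE BTK, IGHG1, SPP1, MAFK and MYB) were chosen after their values were seen. The members and lists were chosen with earlier results of these data known. Positions are from GENCODE v29 (11207 and 12205 tested genes matched by symbol) and promoters from RefSeq GRCh38.p14 (8 of 10 members). Libraries with the same replicate number deviated together in all 6 KMS12PE pairs (correlation of deviations 0.254 to 0.537). In KMS27 the 6 correlations ran from 0.0597 to 0.444. The main fits held no replicate block in either line, so the main KMS12PE calls leave this pairing out. DESeq2 1.42.0, its size factors, no filter, the replicate block and leaving out each library were tried as alternatives.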

Additional observations from a re-analysis of the deposited data

Results flagged for a closer look

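The response of POU2AF1 differed between KMS12PE clones A and C and the KMS27 clones by a direct test. The change in the former minus that in the latter was -3.04 on the log2 scale (edgeR's quasi-likelihood test, adjusted p = 1.71e-07). POU2AF1 was lower in 2 of 2 KMS12PE clones tested. The KMS12PE parental libraries also entered the clone D comparison that selected POU2AF1, so this p-value is not fully independent of that choice. The response of SPIB differed by -1.86 (adjusted p = 0.0179), with 5 to 13 counts per library in KMS12PE parental cells and clones A and C.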

How the results depend on the processing

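Over the alternatives tried for the members (763 values), 709 kept their side of the threshold, 42 lost their call and 12 gained one. No member called in the main fit changed direction. Changes of direction in values called in neither fit were not counted, and the test among clones has no direction. Of 876 values for the named genes of the lists, 742 kept direction and call, 134 lost their call and none reversed. DESeq2's size factors in place of TMM shifted log2 fold changes by between -0.0102 and 0.00319 in the 6 clones. With DESeq2's own test, 97 genes and 2 members were called in clone A (55 and 1 by edgeR's quasi-likelihood test).

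With the replicate number as a block, 448 genes and 3 members were called in clone A and 869 genes in clone C of KMS12PE, and 2339 genes in the difference between lines (1497 without it). Among the KMS27 clones, where the numbers were not shown to pair the libraries, the block gave 2965 genes in place of 1933, and POU2AF1 in C1 passed with it (adjusted p = 0.0386). Beside that call and those of ETS1 and BACH2 in clone A, the block changed no call of a member.

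Leaving out 1 library at a time gave 22 to 71 genes and 1 to 2 members in clone A, 60 to 276 genes and 1 to 3 members in clone C, and 74 to 121 genes at least 8-fold lower in clone D (117 with all libraries, and 74 without clone D replicate 3). In KMS27 it gave 1224 to 5032 genes and 2 to 5 members in B5 (2959 and 5 with all), 856 to 5143 genes and 3 to 5 members in C1 (3049 and 4), 982 to 4420 genes and 2 to 3 members in C5 (2772 and 3), and 602 to 4587 genes and 1 to 6 members among clones (1933 and 4). The highest of these counts for B5, C1, C5 and among clones came without B5 replicate 1. The difference between lines gave 875 to 2082 genes and 1 to 2 members. Where a population was left with 1 library, it was assumed to vary like the others. The causes of these changes were not tested.

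Depth limits SPIB in KMS12PE, with at most 13 counts per library.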
